A study of Mus musculus with 20 samples.

Results

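The 10 genes described here are antioxidant and cytoprotective targets of the transcription factor NRF2: Hmox1, Nqo1, Osgin1, Slc7a11, Gclc, Gclm, Gstm1, Txnrd1, Srxn1 and Pgd. They were chosen by name, and all 10 have a row among the 29956 gene rows of the deposited tables. All 10 passed the filter on low counts that left 13541 genes for testing. One of them, Nqo1, passed it because of its counts in a single group. Counts of members in the comparisons below are therefore over the other 9, which were detected in every library. Only the closing section counts all 10. Under the hairpin shHIRA II, 6 of these 9 genes had higher mRNA levels than under the control hairpins (15.7% of all genes tested). Gstm1 had a lower level (16.7% of all genes tested). Under the hairpin shHIRA I, under which Hira mRNA was lower, Srxn1 was lower (8.87% of all genes tested). Gclm was called higher through 1 library (10.9% of all genes tested), and 7 were not called, where 19.7% of all genes tested changed.

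NRF2, the product of Nfe2l2, is held in the cytoplasm by KEAP1, which passes it on for degradation. Oxidants and electrophiles that modify KEAP1 free NRF2 to enter the nucleus, pair with a small MAF protein and bind antioxidant response elements near its target genes, sites that the repressor BACH1 can also occupy. Pigment cells are exposed to oxidants from melanin synthesis, and Slc7a11, 1 of the genes here, is known from the mouse subtle gray mutation as a gene that affects coat pigment.

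Poly(A) RNA was sequenced from melb-a cells, an immortalised mouse melanoblast line of wild-type genotype, in 5 groups of 4 libraries. The cells carried a lentiviral hairpin against Hira (shHIRA II or shHIRA I), a lentiviral control hairpin (shScramble or shLuciferase), or no virus (parental). Hira encodes a chaperone that places the histone variant H3.3 on DNA. All transduced cells had been selected in puromycin and the parental cells were not transduced. All groups grew in the same medium with serum, SCF and Fgf2. By the design text the 4 replicates of each group were independent, and whether each came from its own transduction is not given in the sources used here. Library totals ran from 14.95 to 20.67 M estimated counts (M, 1e6).

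Hira itself stood at 63.2, 63.3, 70.9 and 69.8 counts per 1e6 counts (CPM, scaled by TMM) in the shHIRA II libraries and at 45.4, 26.6, 41.8 and 33.3 CPM in the shHIRA I libraries. The control libraries held 81.7, 64.4, 71.3 and 79.0 CPM under shScramble and 89.8, 72.2, 87.1 and 63.7 CPM under shLuciferase. Hira was lower under shHIRA I than under the control hairpins (log2 fold change -1.05, SE 0.14, adjusted p = 5.15e-05, edgeR quasi-likelihood test) and not detectably lower in the libraries labelled shHIRA II (-0.19, SE 0.14, adjusted p = 0.306). The libraries of the second hairpin are therefore referred to by their label. Of the distinct 31-base stretches of Hira transcripts, 43.1% also occur in the overlapping gene model Gm28539, so the Hira row may hold counts that belong to that model.

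Of 10 melanoblast markers, Ednrb had at most 2.91 counts in any library, and Sox10 reached at most 0.0542 TPM (transcripts per 1e6 transcripts) in shLuciferase libraries and 11.2 TPM in any library. The summed TPM of the 10 markers ran from 661 to 1065 in shHIRA II libraries and from 975.1 to 2987 in shHIRA I libraries. It ran from 2481 to 4060 under shScramble, from 2704 to 4287 under shLuciferase and from 2545 to 3637 in parental cells. In a bulk library, fewer cells that express a gene and less RNA of that gene per cell cannot be told apart. The share of counts from mitochondrial mRNA was 4.19 ± 0.876% in shHIRA II libraries against 8.10 ± 1.22% in the 8 control hairpin libraries (SD, n = 4 and 8, exact two-sided permutation p = 0.00202, the smallest that 495 arrangements allow). In shHIRA I libraries it was 5.70 ± 3.44% (SD, n = 4, exact permutation p = 0.0788).

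Sequences before the start sites are shown for the members whose 250-base upstream window holds a core antioxidant response element. The core was written as TGACNNNGC or TGAGNNNGC and searched on both strands of RefSeq promoter windows (GRCm38.p6). The 8 members with a window had 12 in all, 1 for each start site (3 for Txnrd1 and 2 each for Gstm1 and Pgd), and Hmox1 and Gclc had none. A match stood in 5 of the 12 windows, 1 each of 5 members: Osgin1, Gclm, Srxn1, Txnrd1 and Slc7a11. Of all 32851 windows of this length, 10.2% held TGACNNNGC, 14.4% held TGAGNNNGC and 23.0% held either. Capitals mark the matches, in the strand of the gene, so that a core on the opposite strand reads as its reverse complement. Further capitals mark TGAGTCA, the site of AP-1 proteins, which reads TGACTCA on the other strand. It is in 4.46% of all windows and lies inside the core of Osgin1 and inside the Srxn1 core nearer the start. In Slc7a11 they also mark TGATGNAA, the form of site bound by ATF4 with C/EBP proteins.
Osgin1, chr8:119437023-119437081, plus strand: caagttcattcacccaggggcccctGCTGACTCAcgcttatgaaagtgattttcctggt
Gclm, chr3:122245398-122245456, plus strand: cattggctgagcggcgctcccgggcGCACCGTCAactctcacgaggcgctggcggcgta
Srxn1, chr2:152105341-152105512, plus strand: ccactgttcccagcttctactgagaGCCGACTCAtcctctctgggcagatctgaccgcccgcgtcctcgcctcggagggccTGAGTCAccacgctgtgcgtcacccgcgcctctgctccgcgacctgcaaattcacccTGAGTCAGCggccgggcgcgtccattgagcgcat
Txnrd1, chr10:82859089-82859147, plus strand: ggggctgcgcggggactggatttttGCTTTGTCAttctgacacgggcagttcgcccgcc
Slc7a11, chr3:50443628-50443735, minus strand: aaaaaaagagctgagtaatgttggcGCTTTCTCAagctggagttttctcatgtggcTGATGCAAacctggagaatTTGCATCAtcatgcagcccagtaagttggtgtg

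Srxn1 was the member with more than 1 core in its window, at bases 158 to 150 and 45 to 37 before the start, with a further TGAGTCA at bases 102 to 96. The Slc7a11 window held a core at bases 97 to 89 and TGATGNAA at 2 places, bases 66 to 59 and bases 47 to 40. TGATGNAA occurred in 3.45% of all windows and at 2 or more places in 13 of them (0.0396%). These matches describe the letters of the windows, and binding was not measured.

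Between the hairpins against Hira and the control hairpins, each comparison was made over the same 8 control libraries, so the comparisons are not independent of each other. Under shHIRA II, where 32.4% of all genes tested changed in either direction, 7 of the 9 members detected throughout changed. Of these, 6 rose (Hmox1, Osgin1, Slc7a11, Txnrd1, Srxn1 and Pgd), as did 15.7% of all genes tested. Gstm1 fell, as did 16.7% of all genes tested, and Gclm and Gclc did not pass the test. The median log2 fold change of the 9 was 0.75, beside 0.02 for all genes. For 5 of the 9, every shHIRA II library lay above every control hairpin library (11.3% of all genes), and for Gstm1 every one lay below (12.7% of all genes).

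In shHIRA I libraries, 1 of the 9 was called higher (Gclm; 10.9% of all genes) and 1 lower (Srxn1; 8.87% of all genes), and the median log2 fold change was 0.03, beside 0.05 for all genes. In all, 19.7% of genes changed under shHIRA I. No member had all shHIRA I libraries above all control hairpin libraries (4.62% of all genes), and Srxn1 had all of them below (4.52% of all genes). Between the hairpins, 5 of the 9 were higher under shHIRA II than under shHIRA I (Hmox1, Osgin1, Txnrd1, Srxn1 and Pgd; 8.6% of all genes) and Gstm1 was lower (12.4% of all genes), 6 of 9 members where 21% of all genes differed. Each of these 5 genes was higher in all shHIRA II libraries than in all shHIRA I libraries (8.71% of all genes), and Gstm1 was lower in all (9.65% of all genes).

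**Figure D1:**
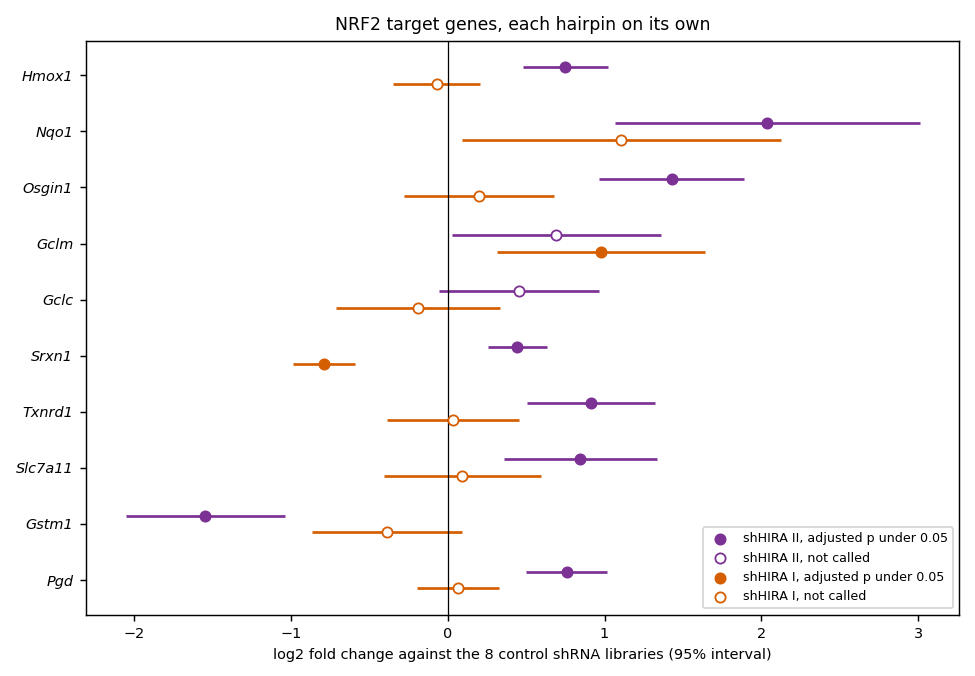
Log2 fold change of each member against the 8 control hairpin libraries (x axis), shHIRA II above shHIRA I for each gene, with lines for 95% intervals and filled points for an adjusted p under 0.05. Hmox1, Osgin1, Txnrd1, Slc7a11 and Pgd lie to the right of 0 under shHIRA II and near 0 under shHIRA I, and Srxn1 lies on opposite sides (0.44 under shHIRA II, -0.79 under shHIRA I).

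The enzymes of heme and quinone turnover come first. Hmox1 (chr8:75093621-75100589, plus strand, GRCm38), heme oxygenase 1, opens heme to biliverdin, iron and carbon monoxide. It stood at 164, 179, 178 and 205 CPM in shHIRA II libraries and at 119.8, 79.1, 125 and 88.7 CPM in shHIRA I libraries. It stood at 112, 105, 123 and 114 CPM under shScramble, at 103, 88.4, 112 and 108 CPM under shLuciferase, and at 83.2, 57.7, 59.4 and 68.1 CPM in parental cells. All shHIRA II libraries lay above all others, and all parental libraries lay below all control hairpin libraries. Hmox1 rose under shHIRA II (log2 fold change 0.75, SE 0.13, a 1.68-fold difference, adjusted p = 0.000268). Under shHIRA I its log2 fold change was -0.07 (95% interval -0.35 to 0.21, adjusted p = 0.766), and the difference between the hairpins was 0.82 (SE 0.15, adjusted p = 0.00113).

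Nqo1 (chr8:107388225-107403206, minus strand), a quinone reductase used widely as a marker of NRF2 activity, was close to undetected in this line. Its estimated counts were 11.6, 17.5, 17.7 and 18.5 in shHIRA II libraries and 21.1, 2.03, 5.70 and 5.05 in shHIRA I libraries. The 8 control hairpin libraries held between 2.01 and 6.0 counts, and the parental libraries between 3.0 and 8.10. The counts were thus highest in 1 shHIRA I library and the 4 shHIRA II libraries, the 5 libraries with at least 10 counts. The fitted log2 fold change under shHIRA II was 2.04 (SE 0.46, adjusted p = 0.00262), on a gene that entered the test through these libraries. On the log2(TPM + 1) scale, which understates changes of low genes, it was 0.58. Under shHIRA I it was 1.11 (SE 0.49, adjusted p = 0.12), and without shHIRA I replicate 2 the adjusted p was 0.0362.

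Osgin1 (chr8:119434124-119446256, plus strand), the oxidative stress induced growth inhibitor, showed the largest rise among the 9 members detected throughout. It was measured at 102, 75.2, 91.7 and 123 CPM in shHIRA II libraries and at 61.7, 23.1, 46.9 and 35.6 CPM in shHIRA I libraries. The control values were 45.5, 30.5, 36.2 and 34.4 CPM under shScramble and 47.6, 22.2, 35.0 and 39.5 CPM under shLuciferase, and parental cells held 31.7, 19.8, 20.0 and 24.5 CPM. No library of another group reached the lowest shHIRA II library. The log2 fold change was 1.43 under shHIRA II (SE 0.22, 2.69-fold, adjusted p = 0.000105) and 0.20 under shHIRA I (95% interval -0.28 to 0.68, adjusted p = 0.587). The hairpins differed by 1.23 (SE 0.27, adjusted p = 0.00328).

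**Figure D2:**
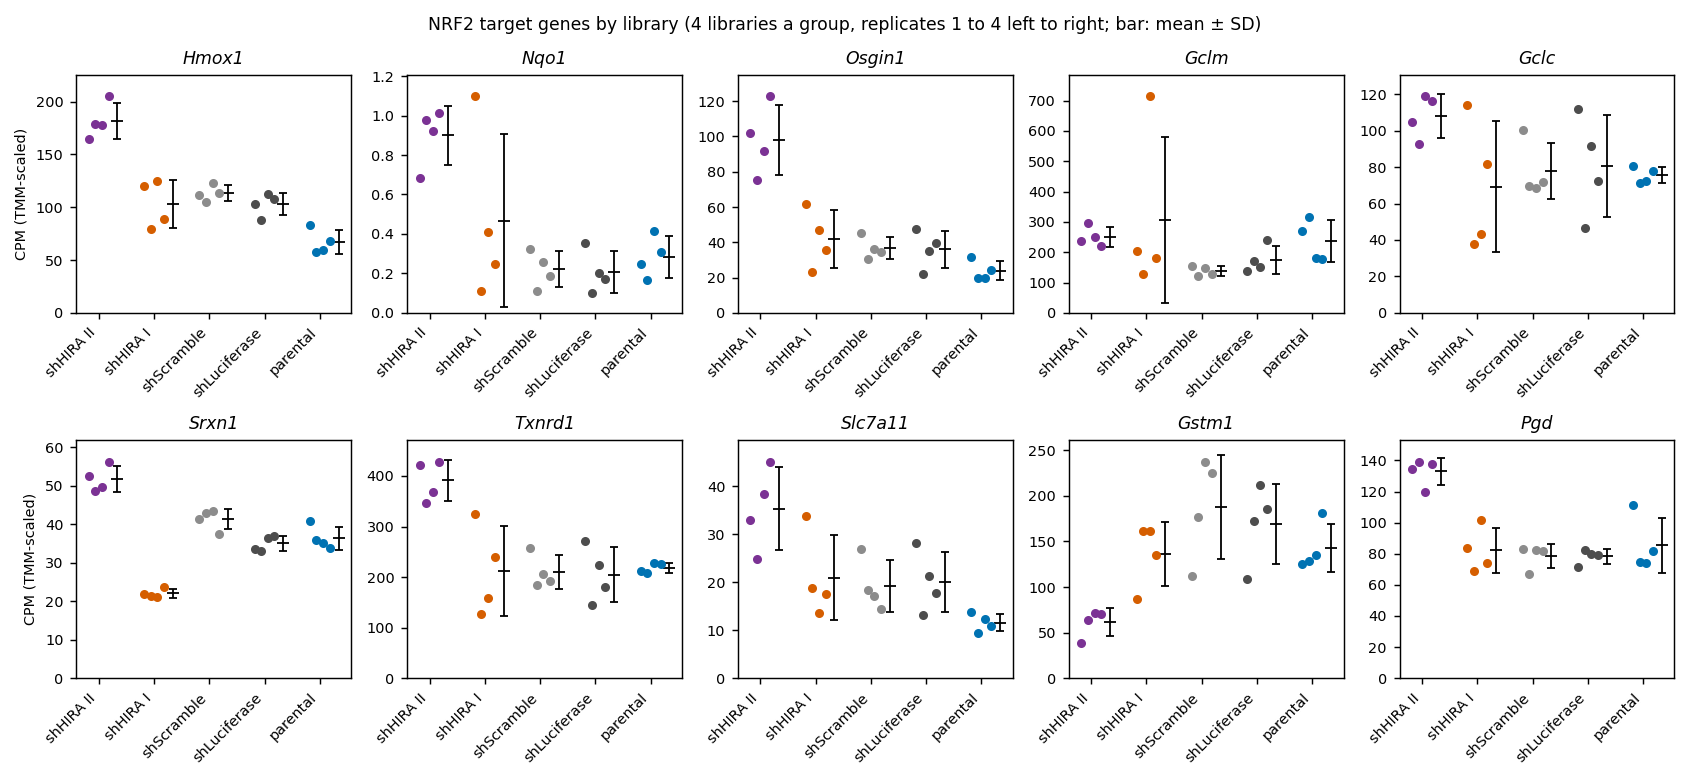
TMM-scaled CPM of the 10 members (y axis, from 0, 1 panel a gene) in the 4 libraries of shHIRA II, shHIRA I, shScramble, shLuciferase and parental cells, with the mean and SD beside each group. The shHIRA II points stand above the other groups for Hmox1, Osgin1, Srxn1, Txnrd1 and Pgd and below them for Gstm1, and 1 shHIRA I library reaches 714 CPM for Gclm.

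Glutathione is built from cystine brought in by SLC7A11, by glutamate-cysteine ligase with its catalytic subunit GCLC and its modifier subunit GCLM. Slc7a11 (chr3:49892526-50443614, minus strand) stood at 32.9, 24.8, 38.5 and 45.2 CPM in shHIRA II libraries and at 33.9, 18.7, 13.6 and 17.6 CPM in shHIRA I libraries. It stood at 26.9, 18.3, 17.2 and 14.5 CPM under shScramble, 28.1, 13.3, 21.2 and 17.8 CPM under shLuciferase, and 13.8, 9.52, 12.3 and 10.8 CPM in parental cells. Replicate 1 of each control hairpin reached into the shHIRA II range, and replicate 1 of shHIRA I was above 2 shHIRA II libraries. Slc7a11 rose under shHIRA II (0.85, SE 0.23, 1.80-fold, adjusted p = 0.0096). Under shHIRA I the log2 fold change was 0.09 (95% interval -0.41 to 0.60, adjusted p = 0.83). The difference between the hairpins was 0.75 (SE 0.28) and missed the threshold (adjusted p = 0.0617). DESeq2 called it (0.77, adjusted p = 0.0344), and edgeR did without shHIRA I replicate 1 (adjusted p = 0.00684) or without shHIRA II replicate 2 (0.89, adjusted p = 0.0419).

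Gclc (chr9:77754535-77794485, plus strand) spread widely within groups. It stood at 105, 92.6, 119 and 116 CPM in shHIRA II libraries, at 114, 37.8, 43.2 and 81.6 CPM in shHIRA I libraries, at 101, 69.8, 68.5 and 71.7 CPM under shScramble and at 112, 46.4, 91.3 and 72.1 CPM under shLuciferase. Parental libraries held 80.5, 71.4, 72.3 and 77.8 CPM. The shHIRA II libraries lay above the parental ones and overlapped all other groups. The log2 fold changes were 0.45 under shHIRA II (95% interval -0.06 to 0.96, adjusted p = 0.165) and -0.19 under shHIRA I (95% interval -0.71 to 0.33, adjusted p = 0.649).

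Gclm (chr3:122245557-122270732, plus strand) stood at 236, 298, 252 and 221 CPM in shHIRA II libraries and at 204, 129, 714 and 180.3 CPM in shHIRA I libraries. The control libraries held 156, 122, 148 and 128 CPM under shScramble and 137, 170.0, 153 and 240.0 CPM under shLuciferase, and the parental libraries held 271, 316, 180.3 and 178 CPM. The shHIRA I group was called higher than the control hairpins (0.98, SE 0.32, adjusted p = 0.0352), and without its replicate 3 the log2 fold change was 0.13 (adjusted p = 0.689). The shHIRA II value was 0.69 (SE 0.32, adjusted p = 0.104) and passed the test when that shHIRA I library was left out (0.67, adjusted p = 0.00545). It also passed with only the compared groups in the fit (0.68, adjusted p = 0.00277) and with limma on log2(TPM + 1) (0.78, adjusted p = 0.0324). With the mitochondrial share as a covariate the value was -0.23 under shHIRA II and 0.10 under shHIRA I, and neither passed.

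The Gclm row also carries an uncertainty of its own. Its counts and TPM imply 1 length of 678 bases, while its annotated transcripts run from 292 to 5589 bases. One of them, Gclm-202, a processed transcript of 762 bases, shares 225 of its 732 stretches of 31 bases (30.7%) with Ppia, which stood between 2953 and 5355 TPM in all libraries. How many counts of the Gclm row came from such shared sequence was not tested.

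Gstm1 (chr3:108012255-108017973, minus strand), a glutathione S-transferase of the mu class that joins glutathione to electrophiles, moved against the rest. It stood at 38.7, 64.1, 71.4 and 70.5 CPM in shHIRA II libraries and at 87.3, 161, 161 and 135 CPM in shHIRA I libraries. It stood at 112, 177, 238 and 226 CPM under shScramble, 109, 172, 211 and 186 CPM under shLuciferase, and 126, 129, 135 and 182 CPM in parental cells. All shHIRA II libraries lay below all others, and replicate 1 was the lowest library of every group. Gstm1 fell under shHIRA II (log2 fold change -1.54, SE 0.24, 2.92-fold lower, adjusted p = 0.000121). Under shHIRA I the value was -0.39 (95% interval -0.87 to 0.09, adjusted p = 0.257), and the hairpins differed by -1.16 (SE 0.26, adjusted p = 0.00439). Of the 31-base stretches of Gstm1, 28.8% also occur in 7 other genes, Gstm3 and the pseudogene Gstm2-ps1 among them. With the counts of Gstm1 to Gstm7 summed in 1 row, the log2 fold change under shHIRA II was -0.94 (SE 0.17, adjusted p = 0.000483).

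Thioredoxin reductase 1 and sulfiredoxin keep protein thiols and peroxiredoxins reduced. Txnrd1 (chr10:82833951-82897712, plus strand) stood at 421, 346, 369 and 429 CPM in shHIRA II libraries and at 325, 127, 159 and 239.6 CPM in shHIRA I libraries. It stood at 258, 184, 207 and 193 CPM under shScramble, 272, 145, 223 and 179.9 CPM under shLuciferase, and 212, 208, 227 and 225 CPM in parental cells. The lowest shHIRA II library exceeded every other library. Txnrd1 rose under shHIRA II (0.91, SE 0.20, 1.88-fold, adjusted p = 0.00158). Under shHIRA I the log2 fold change was 0.03 (95% interval -0.39 to 0.45, adjusted p = 0.932), and the hairpins differed by 0.88 (SE 0.23, adjusted p = 0.0113), a call that was lost with only the compared groups in the fit (0.88, adjusted p = 0.0871). With the mitochondrial share as a covariate the shHIRA II value was 0.78 and missed the threshold (adjusted p = 0.053).

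Srxn1 (chr2:152105516-152111376, plus strand), sulfiredoxin 1, which restores peroxiredoxins after overoxidation, was the member on which the hairpins differed in direction. It stood at 52.5, 48.7, 49.7 and 56.3 CPM in shHIRA II libraries and at 21.9, 21.3, 21.1 and 23.8 CPM in shHIRA I libraries. It stood at 41.4, 42.9, 43.6 and 37.6 CPM under shScramble, 33.7, 33.1, 36.4 and 37.1 CPM under shLuciferase, and 40.7, 35.9, 35.1 and 33.8 CPM in parental cells. The shHIRA II libraries lay above all control and parental libraries and the shHIRA I libraries below all of them. Srxn1 rose under shHIRA II (0.44, SE 0.09, 1.36-fold, adjusted p = 0.00108) and fell under shHIRA I (-0.79, SE 0.10, 1.73-fold lower, adjusted p = 1.7e-05). The hairpins differed by 1.23 (SE 0.11, adjusted p = 2.44e-06). Against each control hairpin alone, the shHIRA II value was 0.33 with shScramble (adjusted p = 0.0304) and 0.56 with shLuciferase (adjusted p = 0.00095). The shHIRA I value was -0.91 with shScramble (adjusted p = 2.93e-05) and -0.67 with shLuciferase (adjusted p = 0.00051). Every shScramble library lay above every shLuciferase library, as for 0.997% of all genes, a difference of 0.24 that did not pass the test.

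Pgd (chr4:149149991-149166771, minus strand), 6-phosphogluconate dehydrogenase, makes NADPH in the pentose phosphate pathway, the electron source for both the thioredoxin and the glutathione systems. It stood at 135, 139, 119.9 and 138 CPM in shHIRA II libraries and at 83.5, 68.9, 102 and 74.1 CPM in shHIRA I libraries. It stood at 82.9, 67.2, 82.6 and 82.1 CPM under shScramble, 71.4, 82.5, 79.9 and 79.3 CPM under shLuciferase, and 112, 74.8, 74.0 and 81.9 CPM in parental cells. No library of another group reached the shHIRA II range. Pgd rose under shHIRA II (0.76, SE 0.12, 1.69-fold, adjusted p = 0.000153). Under shHIRA I it was at 0.07 (95% interval -0.20 to 0.33, adjusted p = 0.768), and the hairpins differed by 0.69 (SE 0.15, adjusted p = 0.00249).

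On the TPM scale, which allows for length, the members ordered as follows by their mean over the 5 groups (SD over 20 libraries). Gclm was first at 370.3 ± 182 TPM, with the uncertainty of its length noted above, followed by Gstm1 at 141 ± 55.1, Hmox1 at 90.6 ± 36.2 and Txnrd1 at 86.4 ± 35.4 TPM. Then came Pgd at 50.7 ± 14.3, Osgin1 at 31.6 ± 21.4, Gclc at 27.8 ± 9.75, Srxn1 at 15.5 ± 4.58, Slc7a11 at 3.20 ± 1.72 and Nqo1 at 0.339 ± 0.294 TPM. Gstm1 and Hmox1, Hmox1 and Txnrd1, Pgd and Osgin1, and Osgin1 and Gclc are neighbours whose means differed by less than the larger of their SDs. In shHIRA II libraries Hmox1 reached 150.2 ± 25.3 TPM and Gstm1 stood at 65.4 ± 19.7 TPM, whereas Hmox1 stood at 85.5 ± 8.04 TPM and Gstm1 at 182 ± 54.4 TPM under shScramble (SD, n = 4 each).

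Read library by library, 8 of the 9 members detected throughout lay above the median of the control hairpin libraries in each shHIRA II library. The number was 7, 1, 4 and 4 in shHIRA I replicates 1 to 4, between 2 and 5 in parental libraries, and between 2 and 8 in the control hairpin libraries, with 8 in shScramble replicate 1. Of all genes tested, between 48.5 and 50.5% lay above that median in every library. Within shHIRA I, replicate 1 was the highest library for Nqo1, Osgin1, Gclc, Txnrd1 and Slc7a11, and replicate 2 was the lowest for the same genes except Slc7a11. This order was not particular to shHIRA I. Replicate 1 was also the highest for all these genes under shLuciferase and under shScramble, though for none of them under shHIRA II. Replicate 2 was the lowest for all of them under shLuciferase and in parental cells. It was the lowest for all but Nqo1 under shHIRA II, and for Nqo1, Osgin1 and Txnrd1 under shScramble.

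The control hairpins were also set against parental cells. This comparison joins the virus, the hairpin and puromycin selection, which cannot be told apart. Of the 9 members detected throughout, Hmox1 rose (2.05% of all genes rose), none fell (1.57% of all genes fell), and 8 were not called, where 3.62% of all genes changed. Hmox1 was also the member whose control hairpin libraries all lay above the parental ones (3.34% of all genes). Hmox1 was higher by 0.69 on the log2 scale (SE 0.14, 1.61-fold, adjusted p = 0.00801), and by 0.76 with shScramble alone (adjusted p = 0.0161) and 0.62 with shLuciferase alone (adjusted p = 0.0416). Slc7a11 (0.76, adjusted p = 0.108) and Osgin1 (0.60, adjusted p = 0.19) did not pass. In shHIRA II libraries, Hmox1, Osgin1 and Slc7a11 were higher than in parental cells by 1.44 (adjusted p = 5.39e-06), 2.03 (adjusted p = 4.46e-05) and 1.61 (adjusted p = 0.000427). In shHIRA I libraries they were higher than in parental cells by 0.62 for Hmox1 (adjusted p = 0.00931), 0.80 for Osgin1 (adjusted p = 0.0466) and 0.85 for Slc7a11 (adjusted p = 0.0433). Between the control hairpins no member passed the test, and no gene did (0% of all genes). There 170 genes had an unadjusted p under 0.05 by edgeR's test, and DESeq2 called 4 genes.

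The related lists are read against the shares of all genes given above, 15.7% higher and 16.7% lower under shHIRA II and 10.9% higher and 8.87% lower under shHIRA I. Among 12 regulators of NRF2, 4 were higher and 3 lower under shHIRA II (58.3% called, beside 32.4% of all genes). Under shHIRA I, 2 were lower and none higher (16.7% called, beside 19.7% of all genes). Nfe2l2, which encodes NRF2, averaged 121 ± 15.9 CPM under shHIRA II and 135 ± 44.5 CPM under shHIRA I, against 223 ± 23.8 CPM under shScramble and 206 ± 21.9 CPM under shLuciferase (SD, n = 4 each). It fell with both hairpins, by 0.82 under shHIRA II (SE 0.17, adjusted p = 0.00116) and by 0.67 under shHIRA I (SE 0.17, adjusted p = 0.00781). Among its listed targets detected throughout, 6 were called higher under shHIRA II, and none of those 6 was called higher under shHIRA I. Protein level and nuclear location of NRF2 were not measured.

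Keap1 and Bach1, whose proteins act against NRF2, were lower under shHIRA II. Keap1 averaged 42.3 CPM under shHIRA II and 60.7 CPM under the control hairpins (log2 fold change -0.52, adjusted p = 0.0137), and Bach1 averaged 30.7 CPM under shHIRA II and 64.3 CPM under the control hairpins (-1.06, adjusted p = 0.000775). Under shHIRA I their values were -0.20 for Keap1 (adjusted p = 0.392) and -0.19 for Bach1 (adjusted p = 0.551). Sqstm1, whose protein p62 binds KEAP1 and draws it away from NRF2, averaged 1549 ± 214 CPM under shHIRA II, against 779 ± 32.5 CPM under shScramble and 730 ± 59.7 CPM under shLuciferase (1.04, adjusted p = 0.000344). Maff, a small MAF gene, rose to 48.1 CPM under shHIRA II, against 18.2 CPM under the control hairpins (1.40, adjusted p = 8.77e-05), and Mafg did not pass (0.25, adjusted p = 0.121). Gsk3b, a kinase that marks NRF2 for another route of degradation, was higher under shHIRA II (0.46, adjusted p = 0.0382) and lower under shHIRA I (-0.55, adjusted p = 0.0298).

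Of 14 further genes of the glutathione cycle tested, 3 rose and 5 fell under shHIRA II (57.1% called), with a median log2 fold change of -0.20. Those that rose were Slc3a2 (0.99), the partner chain of SLC7A11 in the cystine transporter, glutathione synthetase Gss (0.69) and glutaredoxin Glrx2 (0.59). Gpx3 (-2.16, at 0.127 CPM under shHIRA II and 0.589 CPM under the control hairpins), Mgst3 (-1.31), Glrx (-1.21) and Gpx8 (-0.89) were among those that fell. Under shHIRA I, Ggct (-0.86) and Gpx4 (-0.53) fell and none rose (14.3% called, below the 19.7% of all genes).

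Gstm1 was not alone among the glutathione S-transferases. Of 10 others tested, 5 fell under shHIRA II and Gstm6 rose (0.62; 60% called). The largest falls were those of Gsta2, at 10.96 CPM under shHIRA II and 65.2 CPM under the control hairpins (-2.57, adjusted p = 0.000115), Gsta1 (-1.99, adjusted p = 0.000773) and Gstp1, at 363 CPM under shHIRA II and 901 CPM under the control hairpins (-1.31, adjusted p = 0.000142). Under shHIRA I, Gsta2 (-1.41), Gstp1 (-1.33) and Gstz1 (-0.62) fell and none rose (3 of 10 called). Gstz1 was also lower under the control hairpins than in parental cells (-0.49, adjusted p = 0.0182). Genes of this family resemble each other in sequence, and the counting of shared reads was not tested beyond Gstm1.

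In the thioredoxin and peroxiredoxin list, Prdx5 (0.85) and Txn1 (0.75) rose and Prdx1 (-0.41) fell under shHIRA II, of 11 tested (27.3% called, below the 32.4% of all genes). Under shHIRA I, Txnrd2 (1.94) and Prdx5 (0.67) rose and Txnrd3 (-0.53) and Prdx1 (-0.37) fell (36.4% called). Of 6 other genes of the pentose phosphate pathway and of NADPH supply, G6pdx, an enzyme before Pgd in that pathway, differed between the hairpins. It averaged 119 CPM under shHIRA II, 53.6 CPM under shHIRA I and 82.2 CPM under the control hairpins, a rise under shHIRA II (0.54, adjusted p = 0.00391) and a fall under shHIRA I (-0.61, adjusted p = 0.00364). Taldo1 (-0.64) and Me1 (-0.46) also fell under shHIRA I, and Idh1 (-1.51) and Tkt (-0.88) fell under shHIRA II, so that 3 of the 6 were called with each hairpin.

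Of 9 genes of heme and iron handling, Blvrb, biliverdin reductase B, rose under shHIRA II to 52.0 CPM, against 19.8 CPM under the control hairpins (1.40, adjusted p = 0.00137). Blvra, biliverdin reductase A, was not called under shHIRA II (0.27, adjusted p = 0.269). Slc40a1, the iron exporter, rose at a low level, 1.95 CPM under shHIRA II and 0.230 CPM under the control hairpins (3.04, adjusted p = 0.000419), and also under shHIRA I, at 0.974 CPM (2.04, adjusted p = 0.0147). Parental cells held 1.22 CPM of it, and it was lower under the control hairpins than in them (-2.36, adjusted p = 0.0232). With Blvra, lower under shHIRA I (-0.54), 2 of the 9 were called with each hairpin (22.2%). Of 11 genes for quinones and xenobiotics, Ptgr1 (1.67) and Ugdh (0.44) rose and Ugt1a6a (-1.55) fell under shHIRA II (27.3% called). Ugdh averaged 94.7 CPM under shHIRA II, 69.8 CPM under the control hairpins and 108 CPM in parental cells, and was lower under the control hairpins than in parental cells (-0.63, adjusted p = 0.0131). Under shHIRA I, Ptgr1 (2.54), Abcc2 (2.08), Akr1b8 (1.87) and Abcc4 (0.54) rose and none fell (36.4% called). Ptgr1, Abcc2 and Akr1b8 stood at low levels, 1.46, 2.83 and 1.05 CPM under shHIRA I. Under the control hairpins they stood at 0.263, 0.681 and 0.299 CPM. Ptgr1 was at 0.789 CPM under shHIRA II. Of 4 superoxide dismutase and catalase genes, mitochondrial Sod2 fell with both hairpins, by 1.06 under shHIRA II and by 0.45 under shHIRA I. Sod3 rose under shHIRA I at a low level (2.55, at 1.28 CPM against 0.228 CPM under the control hairpins).

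**Figure D3:**
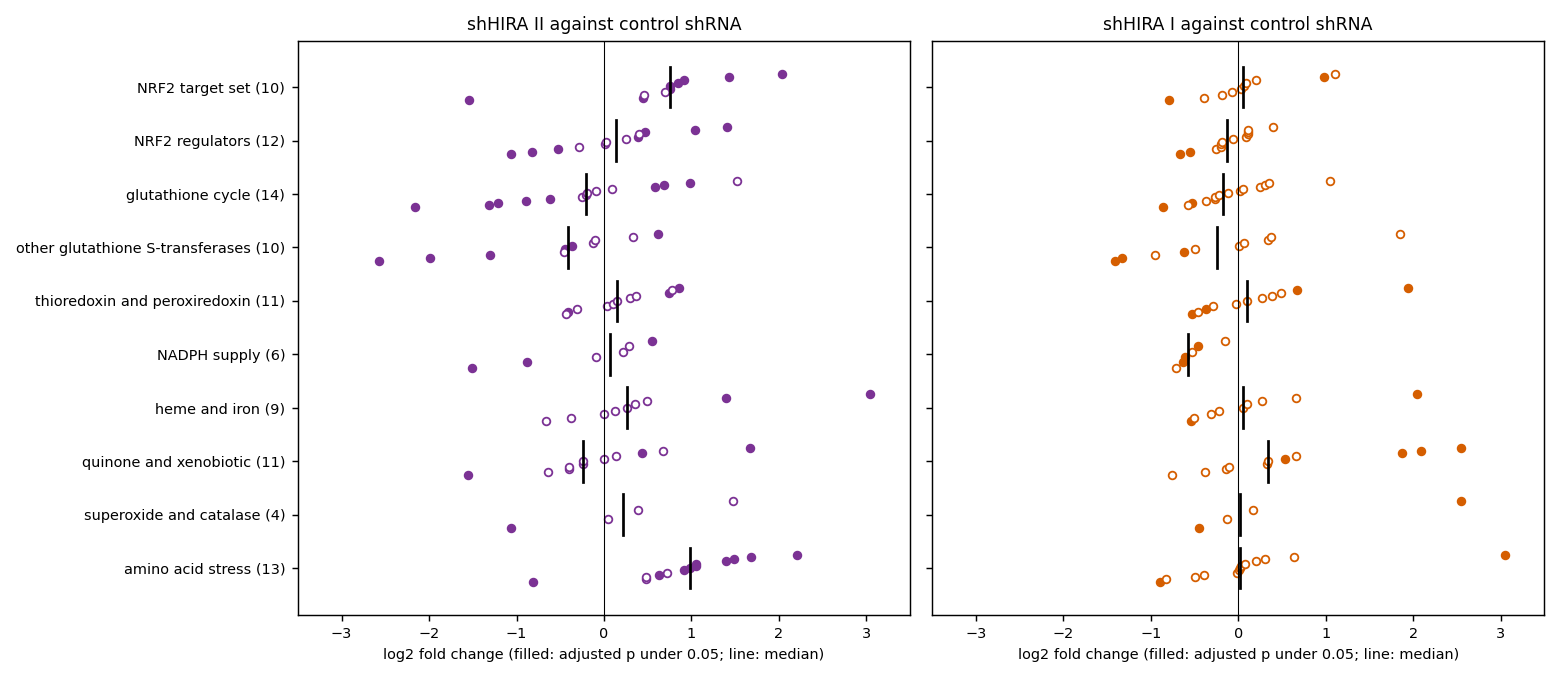
Log2 fold changes against the control hairpins (x axis) of the 10 members and of the tested genes of 9 related lists (rows, number tested in brackets), under shHIRA II (left) and shHIRA I (right), with filled points for an adjusted p under 0.05 and a line at each median. Under shHIRA II the member set and the amino acid stress list have the medians farthest above 0 (0.75 and 0.99), and under shHIRA I the medians of both lie near 0. The member set is drawn with Nqo1, which entered the test through the shHIRA II libraries. Without Nqo1 the median of the other 9 members under shHIRA II is also 0.75.

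Genes of the amino acid stress response, which ATF4 drives and which share Slc7a11 with the NRF2 targets, moved in the same libraries. Of 13 tested, 9 rose and Ddit4 fell (-0.82) under shHIRA II (76.9% called), and the median log2 fold change was 0.99. Slc3a2 is in this list and in the glutathione list, so its rise is counted in both. Asparagine synthetase Asns averaged 705 ± 111 CPM under shHIRA II, against 266 ± 79.0 CPM under shScramble and 272 ± 120.4 CPM under shLuciferase (1.39, adjusted p = 0.00439). Trib3 (1.68), Chac1 (1.49), which breaks down glutathione, and Phgdh (2.20, at 0.467 CPM under shHIRA II and 0.0985 CPM under the control hairpins) rose with it. Under shHIRA I, Phgdh rose (3.05), Ddit4 fell (-0.90) and 11 were not called. Of these 13 genes, 4 were higher under the control hairpins than in parental cells (2.05% of all genes): Chac1 (2.69), Trib3 (1.79), Sesn2 (1.34) and Ddit3 (1.25). What part the ATF4 genes and the NRF2 genes had in the level of Slc7a11 was not tested.

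Some library measures moved with the groups. Of the 9 melanoblast markers tested, 7 fell under shHIRA II (16.7% of all genes), among them Tyr (-4.78), Tyrp1 (-3.77) and Pmel (-3.40). Under shHIRA I 4 fell (8.87% of all genes), among them Tyr (-2.73) and Dct (-2.51). Tyr was also higher under the control hairpins than in parental cells (2.48, adjusted p = 0.00545). No marker of another cell type was called higher in shHIRA II libraries (15.7% of all genes). Of those tested, 1 of 3 keratinocyte, 3 of 4 fibroblast and 2 of 2 leukocyte markers fell there (16.7% of all genes). The summed fibroblast markers ran from 3.05 to 6.37 TPM in shHIRA II libraries, from 40.1 to 89.3 TPM in shHIRA I libraries and from 12.98 to 30.6 TPM in control hairpin libraries. Dcn made up most of that sum and rose under shHIRA I (1.34), as did Col1a1 (3.65), while Thy1 was at 0 in all groups but shHIRA II, where it reached at most 0.143 TPM. The summed keratinocyte markers reached at most 9.75 TPM and the summed leukocyte markers at most 17.8 TPM in any library, with Krt1 at 0 throughout, Krt5 at no more than 0.0590 TPM and Ptprc at no more than 0.128 TPM. Their part in the member results was not tested.

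The lower mitochondrial share in shHIRA II libraries was set beside the members in a fit with that share as a covariate. There, Hmox1 (0.45, adjusted p = 0.0261), Osgin1 (1.01, adjusted p = 0.0154), Slc7a11 (0.94, adjusted p = 0.0483), Srxn1 (0.46, adjusted p = 0.00988) and Pgd (0.51, adjusted p = 0.0138) kept their calls under shHIRA II. Gstm1 also kept its call (-1.65, adjusted p = 0.00108), Txnrd1 missed the threshold as given above, and so did Nqo1 (1.497, adjusted p = 0.122). Srxn1 kept its fall under shHIRA I (-0.78, adjusted p = 4.45e-05). The share differs between the groups, so the fit can assign to it a part of a group difference.

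**Figure D4:**
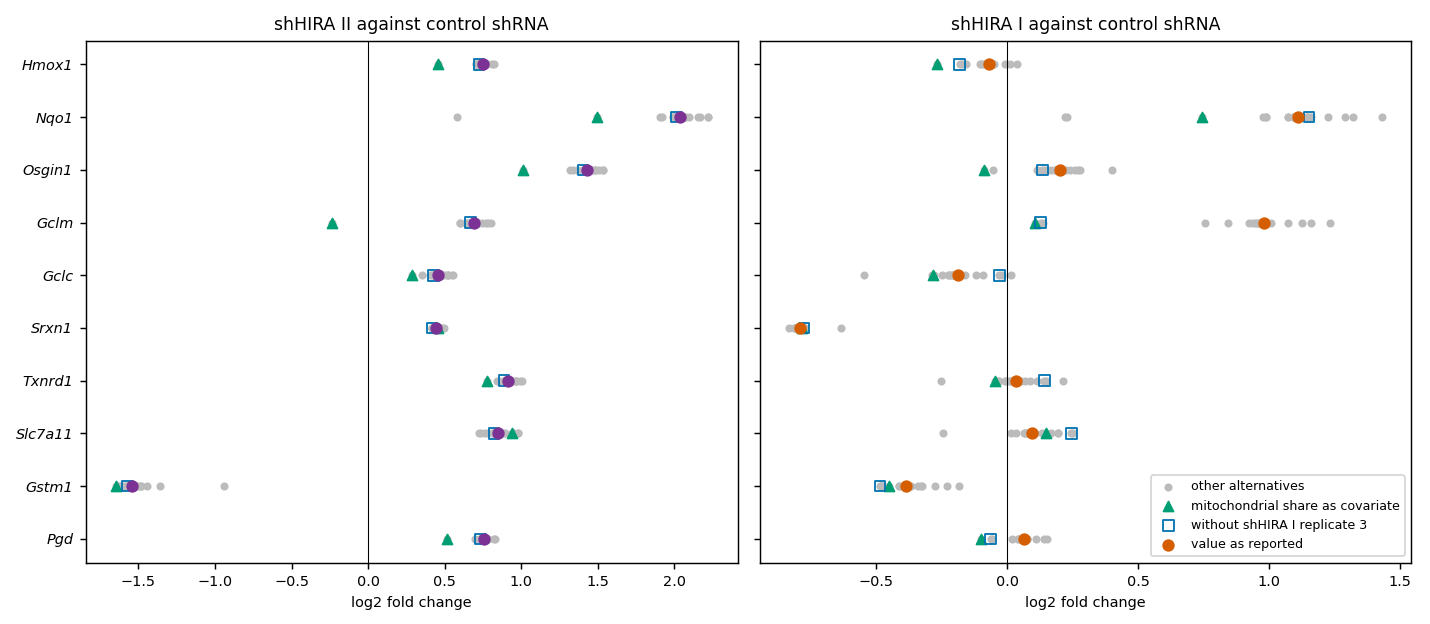
Log2 fold change of each member against the control hairpins (x axis) under shHIRA II (left) and shHIRA I (right), as reported (large points), with the mitochondrial share as a covariate (triangles), without shHIRA I replicate 3 (squares) and under all other alternatives (grey). Gclm moves to near 0 under shHIRA I without that library (0.13), whereas the Srxn1 values stay together on each side of 0.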

How the data were processed

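The authors deposited one table of estimated counts and one table of TPM per gene for 20 libraries, 4 in each of 5 groups. The submitters' processing notes name bcl2fastq, kallisto, edgeR and build mm10, and versions and strand setting are not given in the sources used here. Column names gave the sample. Control columns that name no hairpin were read as parental and shHIRA columns that lack a numeral as shHIRA I, each being the group left over. Counts were rounded and fitted with edgeR 4.0.16 (quasi-likelihood test, TMM, default filter by group, group-means model over all 20 libraries), with Benjamini-Hochberg adjusted p under 0.05 over the 13541 genes tested as a call. The control hairpins entered as the mean of both groups. Errors of fold changes are standard errors, and p-values measure the spread between libraries. The sample titles call the 4 libraries of a group biological replicates, and what part of their spread is technical was not tested. TPM, which the authors scaled per library, gave levels between genes. Fewer reads limit low genes, and Nqo1 most. Alternatives used DESeq2 1.42.0, limma 3.58.1 on log2(TPM + 1), and the others named in the closing section. The test was checked on simulated data. Positions follow GENCODE M21 (GRCm38). Replicate numbers were to be taken as pairs if same-numbered libraries of different groups deviated together with a correlation over 0.1 in all pairs. That held in 17 of 40 pairs, and 13 of 20 libraries correlated best with their own number. The main fit therefore does not pair libraries, and its p-values leave out what same-numbered libraries share. A fit with the replicate number as a block is given in the closing section. The member genes, the related lists and the tests were chosen with earlier results of these data known. Named genes of a related list are the called ones with the largest changes, up to 4 a comparison, with Nfe2l2, Keap1, Bach1 and Mafg named always.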

Additional observations from a re-analysis of the deposited data

Results flagged for a closer look

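Within groups of 4 libraries, a single library stood apart from the other 3 in 4 of 50 member and group combinations examined. Chance alone gives about 1 in 20. Gclm in shHIRA I replicate 3 stood at 714.5 CPM, Gclc in shScramble replicate 1 at 100.5 CPM, Gstm1 in parental replicate 4 at 181.5 CPM and Pgd in shScramble replicate 2 at 67.2 CPM. The Gclm library is also the one of lowest mitochondrial share (1.23% of counts), and whether the 2 are linked was not tested.

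The effects of the hairpins against Hira, each measured over the same control libraries, differed by edgeR's test for 6 of the 9 members detected throughout. Of all genes tested, 21% differed. The difference, shHIRA II minus shHIRA I on the log2 scale, was 1.23 for Srxn1, 1.23 for Osgin1, 0.88 for Txnrd1, 0.82 for Hmox1, 0.69 for Pgd and -1.16 for Gstm1. With only the compared groups in the fit, the Txnrd1 difference missed the threshold (0.88, adjusted p = 0.0871). In each case all 4 shHIRA II libraries lay on one side of all 4 shHIRA I libraries, as they did above for 8.71% and below for 9.65% of all genes.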

How the results depend on the processing

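Counts of members here are over all 10, Nqo1 included, and Nqo1 is named where it changes a count. It entered the test through the shHIRA II libraries, so its calls under shHIRA II are not independent of the filter. No member call reversed under any of 10 other settings or when 1 of the 20 libraries was left out. Under shHIRA II, Hmox1, Osgin1, Slc7a11, Srxn1, Pgd and Gstm1 kept their calls throughout, and Txnrd1 and Nqo1 lost theirs with the mitochondrial share as a covariate. Srxn1 kept its call under shHIRA I. The count of members higher under shHIRA I, 1 as reported (Gclm), was 0 with limma on log2(TPM + 1), with only the compared groups in the fit, with the replicate block, with the mitochondrial covariate, and after leaving out both libraries of lowest mitochondrial share. It ranged from 0 to 2 when single libraries were left out: 0 without shHIRA I replicate 3, shLuciferase replicates 1 or 3 or shScramble replicates 2, 3 or 4, and 2 without shHIRA I replicate 2, where Nqo1 was the call gained. With the replicate block 2 members were lower under shHIRA I (Gstm1 gained, -0.37, adjusted p = 0.0499) and 3 were higher in control hairpins against parental. The block also gave 7 members higher under shHIRA II than under shHIRA I, with Slc7a11 (0.81, adjusted p = 0.0148) and Gclc (0.74, adjusted p = 0.0292) gained. More of all genes were called with it too, 2958 under shHIRA I (2671 as reported) and 4806 under shHIRA II (4394 as reported). Between the hairpins 3147 were called (2845 as reported), and 607 for control hairpins against parental (490 as reported). Same-numbered libraries correlated over 0.1 in 17 of 40 pairs (lowest -0.31), and 13 of 20 libraries correlated best with their own number. Members higher in control hairpins against parental numbered 2 with DESeq2 and 2 with only the compared groups, and 1 was lower (Gclm, -0.60) without those 2 libraries or without shHIRA I replicate 3. Members higher under shHIRA II than under shHIRA I were 5 as reported, 4 with only the compared groups (Txnrd1 lost), 6 with DESeq2 (Slc7a11 gained), and 5 to 8 when single libraries were left out, with 8 without shHIRA I replicate 1 (Nqo1, Gclc and Slc7a11 gained).

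Counts of all genes called moved more. For shHIRA I 1777 genes were called with only the compared groups, against 2671 as reported, and for shHIRA II 2767 with the mitochondrial covariate, against 4394. Between the hairpins 1088 were called with only the compared groups, against 2845, and 1997 to 4430 when single libraries were left out, the highest without shHIRA I replicate 3. For control hairpins against parental, 490 as reported, the counts were 868 (DESeq2), 316 (limma), 880 (only the compared groups), 798 (covariate), 844 (without the 2 libraries), and 214 to 791 when single libraries were left out, with 791 without shHIRA I replicate 3. Between the control hairpins 0 as reported became 4 (DESeq2), 1 (only the compared groups) and 0 to 1 when single libraries were left out. The mitochondrial share of shHIRA I differed from the controls without its replicate 2 (-3.69 percentage points, exact permutation p = 0.00606), and ranged from -3.69 to -0.91 points when single libraries were left out, nearest 0 without its replicate 3. The cause of these shifts was not tested. Depth limits Nqo1, at 21.1 counts or fewer in every library.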
